A study of Mus musculus with 36 samples.

Results

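9 genes named for platelet granule proteins and clotting factors were followed through mouse blood RNA: Pf4, Ppbp, F5, F13a1, Thbs1, Sparc, Clu, Mmrn1 and Selp. They were taken by gene symbol from the array's annotation, which gave 19 probe sets of 9 genes among 18193 genes with a probe set of a single symbol. 17 of the 19 passed a filter on low values, and each gene had at least 1 of them. A further probe set annotated to Thbs1 together with another gene was left out. Peripheral blood was drawn from the heart of 18 male mice, 8 weeks old, 3 from each of the inbred strains FVB/NJ, C3H/HeJ, A/J, 129S1/ImJ, DBA/2J and C57Bl/6J. Each mouse gave 2 Affymetrix arrays. One carried RNA after GLOBINclear, a kit that pulls alpha and beta globin mRNA out of total RNA, and the other carried the whole RNA of that mouse; no mouse was treated in any other way. The study asked how globin mRNA affects array measurements of blood.

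Platelets are shed by megakaryocytes and carry part of that cell's mRNA with them. Their alpha granules store chemokines, adhesive proteins and clotting factors, which are released when a platelet is activated at a wound. Pf4 (platelet factor 4) and Ppbp (pro-platelet basic protein) are CXC chemokines of the granule and widely used platelet markers. Thbs1 (thrombospondin 1), Sparc and Clu (clusterin) are secreted glycoproteins, F5 is the cofactor of the enzyme that makes thrombin, F13a1 is the subunit of factor XIII that cross-links fibrin, Mmrn1 (multimerin 1) binds factor V in human platelets, and Selp (P-selectin) is the granule membrane receptor that captures leukocytes. F13a1 is also known from monocytes and macrophages, Selp and Mmrn1 from endothelium, and Sparc and Thbs1 from connective tissue, so blood RNA can hold them from more than 1 source.

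In RefSeq's mouse gene order Ppbp and Pf4 are neighbouring coding genes on chromosome 5, and Selp and F5 are neighbouring coding genes on chromosome 1. Promoters of 7 of the 9 genes were found in the RefSeq table (assembly GRCm38.p6), each a window of 300 bases that lies mostly upstream of the annotated start and runs a little past it; F13a1 has 2 of them. They were searched on both strands for AGATAA or TGATAA, the core of sites for GATA factors, and for AGGAAG or CGGAAG, the core of sites for Ets factors, since both families act in megakaryocytes. The promoters of the neighbouring chemokine pair are shown because Ppbp and Pf4 differed in their strain order, and those of F13a1, Mmrn1 and Selp because these genes differed among strains. They are written 5′ to 3′ along the gene, and capitals mark a match, with CTTCCT being AGGAAG on the other strand.
Ppbp (chr5:90768268-90768567, + strand): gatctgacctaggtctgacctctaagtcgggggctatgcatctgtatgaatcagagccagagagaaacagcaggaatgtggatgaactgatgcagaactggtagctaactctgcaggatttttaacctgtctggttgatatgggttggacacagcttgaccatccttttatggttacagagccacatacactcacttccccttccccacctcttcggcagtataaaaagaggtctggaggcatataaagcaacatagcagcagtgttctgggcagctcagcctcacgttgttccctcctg
Pf4 (chr5:90772185-90772484, + strand): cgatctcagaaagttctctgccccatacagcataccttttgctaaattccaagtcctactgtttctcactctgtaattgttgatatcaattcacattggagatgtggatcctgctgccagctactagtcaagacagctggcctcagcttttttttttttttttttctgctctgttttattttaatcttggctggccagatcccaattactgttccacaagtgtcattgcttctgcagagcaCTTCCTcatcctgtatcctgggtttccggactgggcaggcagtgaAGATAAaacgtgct
F13a1 (chr13:37050195-37050494, - strand): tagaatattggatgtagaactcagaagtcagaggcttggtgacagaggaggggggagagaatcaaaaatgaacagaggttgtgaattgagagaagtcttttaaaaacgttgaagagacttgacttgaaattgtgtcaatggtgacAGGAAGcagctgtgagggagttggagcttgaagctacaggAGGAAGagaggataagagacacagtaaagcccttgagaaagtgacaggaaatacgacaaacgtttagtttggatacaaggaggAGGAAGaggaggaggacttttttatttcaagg
F13a1 (chr13:37049164-37049463, - strand): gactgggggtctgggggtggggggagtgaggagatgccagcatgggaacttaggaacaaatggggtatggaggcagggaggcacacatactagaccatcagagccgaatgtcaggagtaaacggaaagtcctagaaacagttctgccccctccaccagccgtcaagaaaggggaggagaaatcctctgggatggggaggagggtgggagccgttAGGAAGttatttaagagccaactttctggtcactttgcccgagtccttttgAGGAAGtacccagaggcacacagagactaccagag
Mmrn1 (chr6:60944067-60944366, + strand): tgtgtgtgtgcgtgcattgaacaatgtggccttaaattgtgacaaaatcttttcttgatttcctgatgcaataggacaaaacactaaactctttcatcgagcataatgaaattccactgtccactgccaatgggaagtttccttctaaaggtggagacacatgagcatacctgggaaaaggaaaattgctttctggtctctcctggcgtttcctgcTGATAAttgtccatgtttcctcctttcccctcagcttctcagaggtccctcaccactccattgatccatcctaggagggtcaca
Selp (chr1:164115014-164115313, + strand): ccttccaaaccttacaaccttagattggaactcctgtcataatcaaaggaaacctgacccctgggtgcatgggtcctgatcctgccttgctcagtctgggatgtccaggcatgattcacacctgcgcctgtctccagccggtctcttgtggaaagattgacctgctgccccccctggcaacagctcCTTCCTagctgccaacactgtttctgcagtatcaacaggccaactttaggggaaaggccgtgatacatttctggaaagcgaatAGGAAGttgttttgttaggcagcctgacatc
The Pf4 window held AGATAA starting at base 37 after the start and an Ets match at base -9, while the Ppbp window held none of the 4 hexamers. Mmrn1 held TGATAA at base -34. Both F13a1 windows held Ets matches only, 3 in the upstream window and 2 in the downstream one. Selp had 2 Ets matches. Of the promoters not printed, F5 had 1 and Sparc none, and no match overlapped another. Among 32851 mouse promoters of this length, 18.6% held at least 1 of the GATA hexamers and 46.5% at least 1 of the Ets hexamers, so such matches are common.

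Values are log2 expression summaries as deposited, and a difference between them is a log2 fold change. Array medians lay at 2.78 to 2.85 in GLOBINclear RNA and at 2.86 to 2.94 in whole RNA, and a level near 3 is close to the floor of the scale. The mean correlation of an array with the others of its group was 0.944 to 0.990 in GLOBINclear RNA and 0.958 to 0.985 in whole RNA, lowest in both for C57Bl/6J replicate 1. The library of 129S1/ImJ replicate 3 also stood apart: its 6 neutrophil marker genes averaged 9.34 in GLOBINclear RNA, against 4.83 to 6.98 in the other 17 mice, and its 10 connective tissue and heart muscle genes averaged 4.49, against 2.92 to 3.68. Results that rest on either mouse are given without it below. Genes that define blood were at high levels: erythroid Alas2 averaged 14.02 in GLOBINclear RNA and 14.30 in whole RNA. 9 of 10 platelet marker genes were on the array and tested, with Gp1bb at 12.41 and 10.84. In bulk blood RNA, fewer platelets and less of a transcript per platelet cannot be told apart.

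Removal of globin mRNA was followed by higher readings of these genes, by widely different amounts. 16 of the 17 tested probe sets were higher in GLOBINclear than in whole RNA and 1 was lower, and the brightest set of each of the 9 genes, by the mean over all 36 arrays, was higher. For Sparc that set passed the filter only through its GLOBINclear values. Across the array 39.4% of tested probe sets were called higher and 47.6% lower (limma with the mouse as a block, Benjamini-Hochberg adjusted p under 0.05). The median change was 0.97 over the 17 sets and -0.05 over the 22518 tested. The array-wide change depended on the level: it had a median of -0.14 among sets averaging under 4, 1.14 from 4 to 8, 1.24 from 8 to 11, and 0.57 above that. Within these levels the members' medians were 0.13 (3 sets), 1.07 (4 sets), 1.64 (6 sets) and 0.66 (4 sets). Of the 657 sets at level 8 to 11, 93.3% were called higher, so the count of members there is close to its surroundings. 8 of the 17 sets were at least 2-fold higher, against 18.2% of the array. That share is not the one at the members' levels, since 16488 of the 22518 tested sets averaged under 4. At levels 4 to 8 and 8 to 11 the array's own median change, 1.14 and 1.24, was above 2-fold.

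The clotting factors F5 and F13a1 gave large changes. F5 is read by 2 sets. In GLOBINclear RNA the set 1449269_at lay at 8.59 to 10.42 (median 9.66) and in whole RNA at 5.74 to 7.99 (median 6.86), with no overlap. Its change was 2.67 ± 0.07 (SE, n = 18 mice; limma adjusted p = 8.85e-17), or 6.34-fold, and it was seen in 18 of 18 mice. The other F5 set, 1418907_at, which has the higher mean over all 36 arrays but not in GLOBINclear RNA alone, read 8.86 to 10.16 (median 9.48) in GLOBINclear RNA and 7.35 to 9.37 (median 8.58) in whole RNA, and changed by 1.01 ± 0.07. Both sets rank the mice much alike (r = 0.86 in GLOBINclear and 0.84 in whole RNA over 18 mice), but one read a 6.34-fold and the other a 2.01-fold difference between preparations.

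F13a1 lay at 8.93 to 10.89 (median 10.06) in GLOBINclear RNA and at 6.82 to 9.36 (median 8.49) in whole RNA, and rose by 1.73 ± 0.09 (3.31-fold, limma adjusted p = 8.87e-13). Mmrn1 (1437260_at) lay at 7.10 to 9.78 (median 8.48) in GLOBINclear RNA and at 5.74 to 8.45 (median 7.004) in whole RNA, a rise of 1.51 ± 0.11 (limma adjusted p = 1.16e-10). Every mouse had the higher value in GLOBINclear RNA for both genes, although the ranges overlap between mice. The second Mmrn1 set, 1430621_at, was the 1 member called lower (3.06 ± 0.09 in GLOBINclear RNA and 3.39 ± 0.16 in whole RNA, SD, n = 18), and its levels are at the floor of the scale.

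Clu is read by 4 sets at high levels, which changed by 0.88, 1.56, 1.88 and 2.07, each in 18 of 18 mice. The set that averaged highest across both preparations, 1454849_x_at, changed by 0.88 and stood at 11.45 to 12.51 (median 11.84) in GLOBINclear RNA and at 10.36 to 11.84 (median 10.84) in whole RNA. In GLOBINclear RNA alone 1437689_x_at was brighter (mean 12.29), and it changed by 1.88. Selp (1420558_at) was read at 3.22 to 7.41 (median 5.63) in GLOBINclear RNA and at 3.36 to 6.02 (median 3.84) in whole RNA, and rose by 1.17 ± 0.14 (limma adjusted p = 1.98e-07) with 17 of 18 mice higher. Its second set, 1449906_at, changed by 0.97 ± 0.24 with 14 of 18 mice higher. Another Selp set, 1440173_x_at, averaged 3.32 in GLOBINclear RNA and 2.39 in whole RNA, too low for the filter.

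By brightest set, the chemokines Pf4 and Ppbp and Thbs1 changed least of the 9 genes. Pf4 read 12.55 to 13.30 (median 12.89) in GLOBINclear RNA and 11.58 to 13.13 (median 12.52) in whole RNA, a change of 0.44 ± 0.07 (1.35-fold, limma adjusted p = 4.82e-06; 17 of 18 mice). Ppbp read 10.19 to 13.11 (median 12.46) in GLOBINclear RNA and 8.99 to 13.32 (median 12.17) in whole RNA, a change of 0.30 ± 0.09 (limma adjusted p = 0.00402; 13 of 18 mice). Thbs1 (1460302_at) read 6.67 to 10.33 (median 9.25) in GLOBINclear RNA and 6.42 to 10.18 (median 9.10) in whole RNA, a change of 0.29 ± 0.09 (limma adjusted p = 0.0054; 13 of 18 mice), and its second set changed by 0.24 ± 0.10. For Ppbp and Thbs1 the preparations overlap over most of their range, and the SD between mice exceeds the change. For Pf4 they overlap in part, and its change exceeds the SD between mice in GLOBINclear RNA (0.22) but not in whole RNA (0.44). Their direction also rests on the scaling: with all 36 arrays forced to 1 distribution by quantile normalization, the change was -0.01 for Pf4, -0.31 for Ppbp and -0.91 for Thbs1, and it was -0.19 for F5 (1418907_at), while F13a1 (0.56), Mmrn1 (0.23), Selp (0.42) and Sparc (0.71) stayed higher and Clu (0.06) lost its call.

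**Figure D1:**
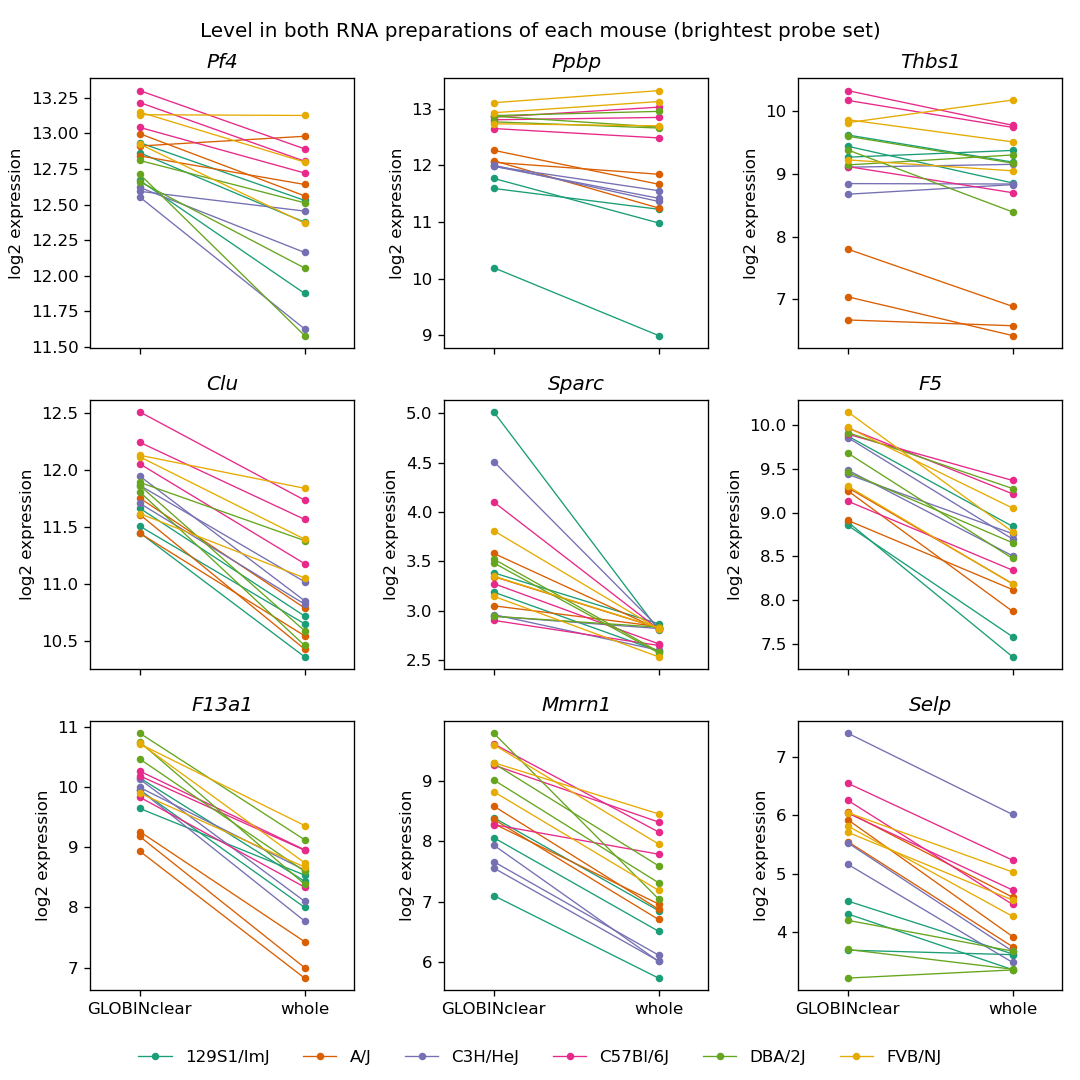
Log2 expression of the brightest probe set of each gene in GLOBINclear and whole RNA, with 1 line per mouse coloured by strain. Lines fall to the right for all 18 mice in F5, F13a1, Mmrn1, Clu and Sparc, and are flat or mixed for Ppbp and Thbs1, where 13 of 18 mice were higher in GLOBINclear RNA.

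Sparc, a collagen-binding glycoprotein of the granule and of connective tissue, was barely above the floor. Its brightest set averaged 3.47 ± 0.57 in GLOBINclear RNA and 2.74 ± 0.12 in whole RNA (SD, n = 18), and the whole RNA value stands at the 37.3rd percentile of all probe sets. That value is below the filter's threshold of 2.89, so the set was tested only through its GLOBINclear readings. A test of its change is therefore favoured towards a rise. The change was 0.74 ± 0.12 (limma adjusted p = 1.22e-05), and in GLOBINclear RNA 3 mice held the top values: 129S1/ImJ replicate 3 at 5.02, C3H/HeJ replicate 1 at 4.51 and C57Bl/6J replicate 1 at 4.10. The other 15 mice lay at 2.901 to 3.81. The same 3 mice had the highest mean level of 11 monocyte and macrophage genes in GLOBINclear RNA, at 6.03, 6.85 and 5.79 in that order, against 4.09 to 4.92 in the other 15. In whole RNA these 3 mice also had the highest monocyte means (4.98, 5.68 and 4.60), but their Sparc readings (2.80, 2.83 and 2.81) lay within the range of the others, 2.53 to 2.87. 129S1/ImJ replicate 3 also had the highest connective tissue mean, and the part of either cell type in the Sparc readings was not tested. The second Sparc set changed by 0.13 ± 0.06 (limma adjusted p = 0.0484) with 8 of 18 mice higher, and the third was at 2.10 and 2.23 and was not tested.

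**Figure D2:**
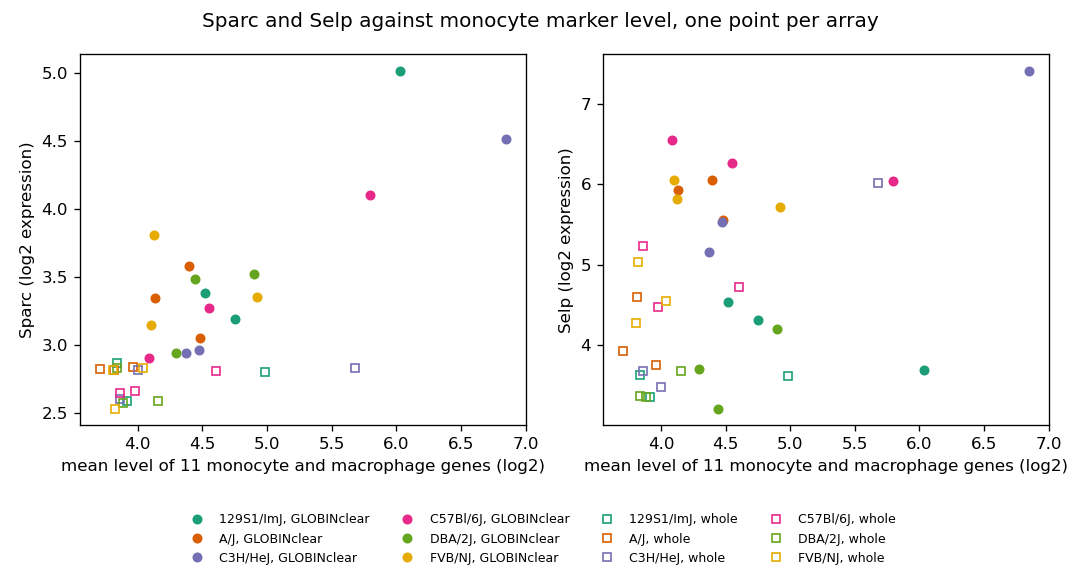
Log2 expression of Sparc (left) and Selp (right) against the mean log2 level of 11 monocyte and macrophage marker genes, 1 point per array, filled for GLOBINclear and open for whole RNA. The 3 filled points above a marker level of 5 are 129S1/ImJ replicate 3, C3H/HeJ replicate 1 and C57Bl/6J replicate 1, which also hold the 3 highest Sparc levels, and C3H/HeJ replicate 1 holds the highest Selp level in both preparations.

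Members also varied among strains. In GLOBINclear RNA 8 of the 17 tested sets (47.1%) differed among the 6 strains by limma's F test, against 11.2% of the array, and in whole RNA 5 did (29.4%), against 4.32%. 4 sets were called in both preparations, against 3.43% of the array. By brightest set, 7 of the 9 genes were called in GLOBINclear RNA (Pf4, Ppbp, Thbs1, F13a1, Mmrn1, Selp and Clu) and 4 of them again in whole RNA (Ppbp, Thbs1, F13a1 and Mmrn1). F5 and Sparc were called in neither. The effect of globin removal itself differed among strains for 2 sets, 1 of Ppbp and 1 of Selp, against 2.44% of the array. Against the mean of the other 5 strains, with the 2 arrays of a mouse averaged, the sets gave 4 calls higher and 6 calls lower. These come from 17 sets each tested in 6 strains. Of the array, 3.87% was called higher in C57Bl/6J and 2.76% in FVB/NJ. Lower were 3.02% in 129S1/ImJ, 1.69% in A/J and 0.635% in C3H/HeJ. By brightest set the higher calls were Thbs1 and Clu in C57Bl/6J and Ppbp in FVB/NJ. The members' counts are pooled over strains and the shares are of single strains, so they cannot be set side by side directly. Without C57Bl/6J replicate 1 and 129S1/ImJ replicate 3 the members' sets gave 12 higher and 9 lower, and the F tests called 9 sets in GLOBINclear and 6 in whole RNA. Shares of the array were not computed for that setting.

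Thbs1, an adhesive glycoprotein that inhibits angiogenesis, was low in A/J blood. A/J mice read 7.80, 6.67 and 7.04 in GLOBINclear RNA, while the 15 mice of the other strains read 8.68 to 10.33. In whole RNA A/J mice read 6.89, 6.58 and 6.42, and the others 8.40 to 10.18. No A/J mouse reached the range of any other strain in either preparation. A/J averaged 6.90 and the other 5 strains 9.32, a difference of -2.42 ± 0.24 (SE; limma adjusted p = 2.98e-05), which is 0.187 of their level. The second Thbs1 set showed -1.85 ± 0.31 (limma adjusted p = 0.00309). With F13a1 these are 3 sets called lower in A/J, against 1.69% of the array. The Thbs1 difference was called in 28 of 28 alternative settings, between -2.64 and -2.28 when single mice were left out.

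Among the other strains Thbs1 was highest in C57Bl/6J and FVB/NJ. C57Bl/6J mice read 9.12, 10.17 and 10.33 in GLOBINclear RNA, and 8.70, 9.74 and 9.78 in whole RNA. FVB/NJ mice read 9.22, 9.82 and 9.87 in GLOBINclear RNA, and 9.05, 10.18 and 9.51 in whole RNA. These ranges overlap each other and those of 129S1/ImJ and DBA/2J. The C57Bl/6J difference of 0.86 ± 0.24 was called (limma adjusted p = 0.0454; 3.87% of the array called higher in C57Bl/6J) but held in 10 of 28 alternatives, and leaving out replicate 2 or replicate 3 gave 0.71 and 0.66 (limma adjusted p = 0.253 and 0.191). Without replicate 1, the mouse with the weakest correlation to its group, it was 1.23.

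F13a1 was lowest in the same strain. A/J mice read 9.26, 8.93 and 9.18 in GLOBINclear RNA, below the 9.64 to 10.89 of all other mice, and 7.43, 6.82 and 6.999 in whole RNA, below the 7.77 to 9.36 of the others. The difference was -1.30 ± 0.18 (limma adjusted p = 0.000772), from strain means of 8.10 in A/J and 9.40 in the other 5, and it was called in 28 of 28 alternatives (-1.42 to -1.19 with single mice left out). The F test over strains in whole RNA was lost without A/J replicate 2 or A/J replicate 3 (limma adjusted p = 0.0935 and 0.0856). DBA/2J had the highest F13a1 in GLOBINclear RNA (10.47, 10.89 and 10.75), 0.78 ± 0.17 above the rest in those arrays (limma adjusted p = 0.0254; 1.16% of the array called higher), but not in whole RNA, where FVB/NJ averaged 8.92 and DBA/2J 8.70. Monocytes also carry F13a1. The mean of 11 monocyte and macrophage genes was 4.13 to 4.48 in A/J and 4.09 to 6.85 in the other strains in GLOBINclear RNA, and limma called 0 of the 11 over strains in either preparation (1 at an unadjusted p under 0.05 in GLOBINclear RNA); the part of these cells in the F13a1 difference was not tested.

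Ppbp was low in 129S1/ImJ blood, with 1 mouse far below the others. The 3 mice read 11.77, 11.59 and 10.19 in GLOBINclear RNA and 10.98, 11.23 and 8.99 in whole RNA, the lowest being replicate 3 in both. The other 15 mice read 11.98 to 13.11 in GLOBINclear RNA and 11.25 to 13.32 in whole RNA, so the groups did not overlap. The difference was -1.64 ± 0.26 (limma adjusted p = 0.00131; 3.02% of the array called lower in 129S1/ImJ), or 0.321 of the level in the others. Without replicate 3 it was -1.04 (limma adjusted p = 9.2e-05). Ppbp then split the strains 3 and 3: A/J (-0.48) and C3H/HeJ (-0.65) were called lower and C57Bl/6J (0.63), DBA/2J (0.66) and FVB/NJ (0.88) higher, while with that mouse only FVB/NJ was called among these 5 (1.00 ± 0.26, limma adjusted p = 0.0446; 2.76% of the array). The FVB/NJ call held in 9 of 28 alternatives, with an adjusted p of up to 0.231 when a mouse was left out, and in neither preparation alone. In the plot of levels by strain, C57Bl/6J, DBA/2J and FVB/NJ lie at 12.49 or above in both preparations and the other 3 strains at 12.27 or below. Replicate 3 of 129S1/ImJ is also the mouse with the highest neutrophil and connective tissue marker means, and the part of those cells in its Ppbp level was not tested.

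Pf4, the neighbouring chemokine gene, did not follow this order. 129S1/ImJ replicate 3 read 12.67 in GLOBINclear RNA and 11.88 in whole RNA. Its strain averaged 12.82 and 12.26 in the same order, inside the range of the other strains. Pf4 was lowest in C3H/HeJ (12.62, 12.59 and 12.55) and highest in C57Bl/6J (13.04, 13.30 and 13.22) in GLOBINclear RNA, where both were called against the rest (-0.36 ± 0.07, limma adjusted p = 0.0124, with 0.702% of the array called lower, and 0.36 ± 0.07, limma adjusted p = 0.00439, with 3.14% called higher). These differences are small in size, and the F test over strains in whole RNA did not pass (limma adjusted p = 0.234). Whole RNA values of single mice spread more: DBA/2J ran from 11.58 to 12.51 and C3H/HeJ from 11.63 to 12.45.

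Mmrn1 was lowest in C3H/HeJ. The 3 mice read 7.56, 7.66 and 7.93 in GLOBINclear RNA and 6.02, 6.12 and 6.01 in whole RNA, against 7.10 to 9.78 and 5.74 to 8.45 in the other 15 mice, where 129S1/ImJ replicate 3 was the 1 mouse below them in each preparation. The difference was -1.15 ± 0.25 (limma adjusted p = 0.0261; 0.635% of the array called lower in C3H/HeJ). With only 2 C3H/HeJ mice its size stayed between -1.20 and -1.11 but its adjusted p was 0.137 to 0.15, and without 129S1/ImJ replicate 3 it was -1.22 (limma adjusted p = 0.00456). The C3H/HeJ call held in 20 of 28 alternatives. It was also lost in GLOBINclear RNA alone, with no filter, with the gene's sets averaged and under quantile normalization, over all arrays or within a preparation. 129S1/ImJ was also called lower (-0.88 ± 0.25, limma adjusted p = 0.0472), and that call went without replicate 3, at -0.54 (limma adjusted p = 0.335); it held in 6 of 28 alternatives, 3 of 18 with a single mouse left out, and in neither preparation alone. C57Bl/6J was 1.19 ± 0.26 above the rest in whole RNA alone (limma adjusted p = 0.0232; 1.8% of the array called higher).

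Selp differed among strains in GLOBINclear RNA. DBA/2J mice read 4.21, 3.22 and 3.71 and 129S1/ImJ mice 4.53, 4.31 and 3.69, while the other 12 mice read 5.16 to 7.41. Both strains were called lower than the rest in these arrays (-1.93 ± 0.35, limma adjusted p = 0.0063, and -1.37 ± 0.35, limma adjusted p = 0.0283), against 0.804% and 2.97% of the array. The lower readings of both strains are close to background, so the size of these differences is not exact. In whole RNA the same strains were lowest, with DBA/2J at 3.68, 3.36 and 3.37 and 129S1/ImJ at 3.63, 3.36 and 3.62, but the F test over strains did not pass (limma adjusted p = 0.47). C3H/HeJ replicate 1 was the highest mouse in both preparations (7.41 and 6.02, against 5.16 and 5.53, and 3.48 and 3.68, in its strain mates), and without it the whole RNA F test passed (limma adjusted p = 0.0111). This mouse had the highest monocyte marker mean of the 18, and the part of those cells in its Selp level was not tested. Of the endothelial genes, another source of Selp and Mmrn1, 10 averaged 3.42 to 3.87 in GLOBINclear RNA and 3.21 to 3.56 in whole RNA across the 18 mice. The second Selp set was not called over strains (limma adjusted p = 0.583 in GLOBINclear RNA), and with the gene's sets averaged the strain call was lost (limma adjusted p = 0.0855).

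Clu's brightest set was highest in C57Bl/6J (12.06, 12.51 and 12.25 in GLOBINclear RNA and 11.18, 11.74 and 11.57 in whole RNA) and lowest in 129S1/ImJ (11.67, 11.51 and 11.45, and 10.72, 10.65 and 10.36). Neighbouring strains overlapped in GLOBINclear RNA, and in whole RNA all did but C3H/HeJ (up to 11.02) and FVB/NJ (from 11.06). C57Bl/6J was 0.57 ± 0.14 above the rest (limma adjusted p = 0.0205), a call lost without its replicate 2 or replicate 3 (0.45 and 0.56, limma adjusted p = 0.169 and 0.0692). It held in 22 of 28 alternatives, and not in whole RNA alone. None of the other Clu sets was called over strains in GLOBINclear RNA (limma adjusted p = 0.315, 0.128 and 0.185). Of these, 1418626_a_at was called in whole RNA (limma adjusted p = 0.0256). FVB/NJ averaged above C57Bl/6J in GLOBINclear RNA for 1437689_x_at (12.72 and 12.42) and 1437458_x_at (11.46 and 11.39), but not for 1418626_a_at. F5 averaged 9.15 in A/J and 9.21 in 129S1/ImJ in GLOBINclear RNA, against 9.60 to 9.81 in the other 4 strains, and was not called (limma adjusted p = 0.565 in GLOBINclear and 0.549 in whole RNA). 129S1/ImJ replicate 3 had the highest F5 of its strain (9.88, against 8.89 and 8.86) and C57Bl/6J replicate 1 the lowest of its own (9.13, against 9.97 and 9.90). Without these 2 mice F5 was called over strains in both preparations (limma adjusted p = 0.0481 and 0.0345), with 129S1/ImJ at -0.998 and C57Bl/6J at 0.74 against the rest; that choice of mice was made after seeing the data.

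**Figure D3:**
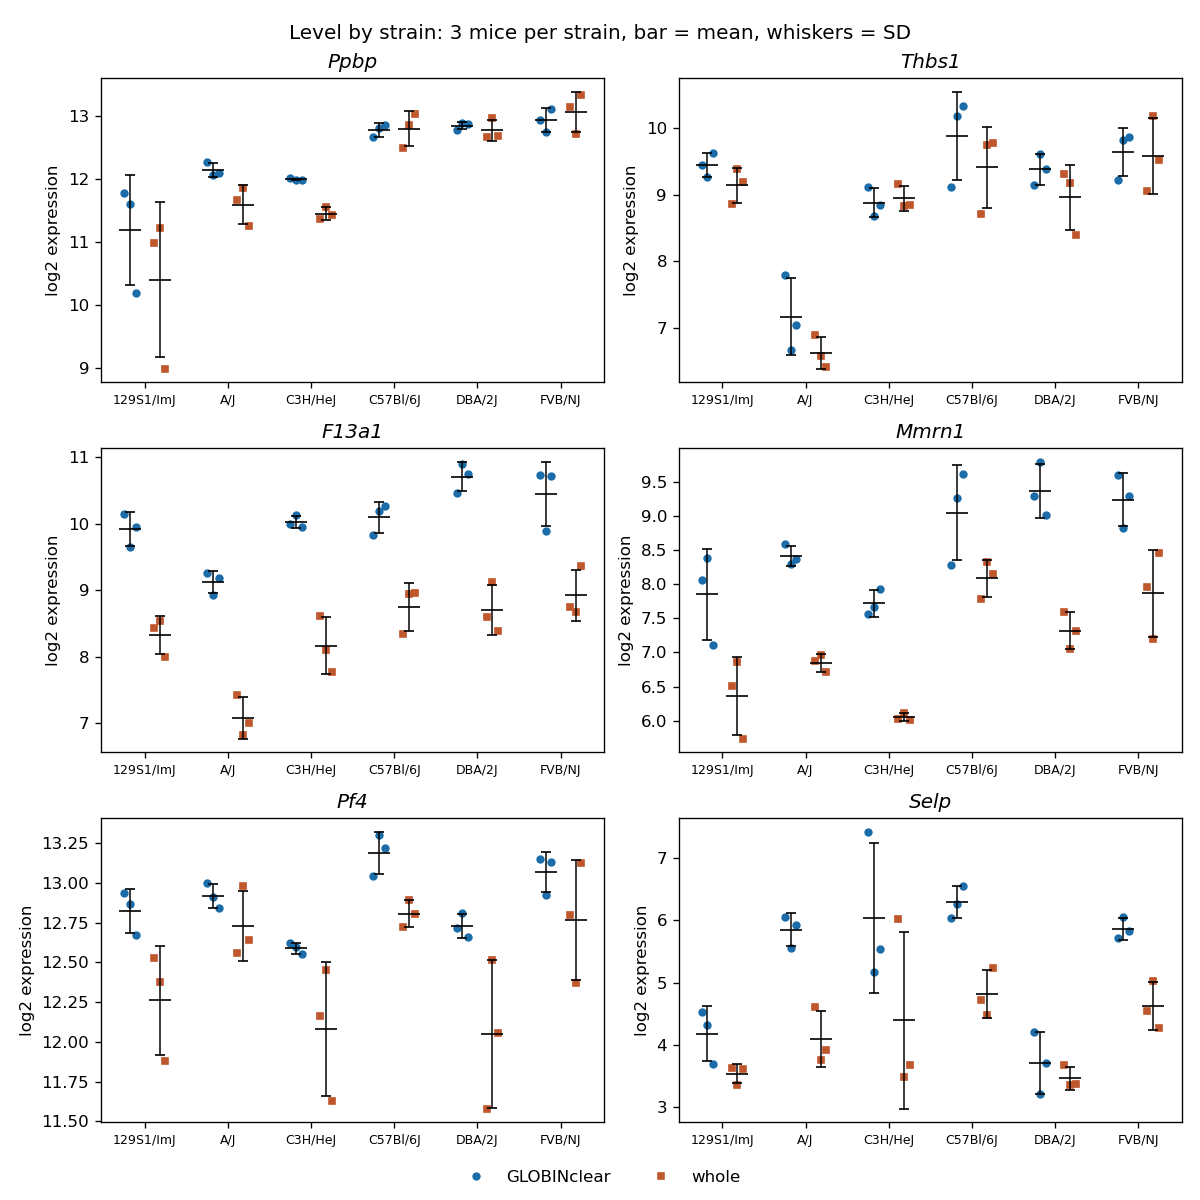
Log2 expression by strain for Ppbp, Thbs1, F13a1, Mmrn1, Pf4 and Selp, 3 mice each, with the mean as a bar and the SD as whiskers. Blue circles are GLOBINclear and orange squares whole RNA. These 6 genes were called over strains in GLOBINclear RNA, as was Clu, which is not shown. A/J stands below all other strains for Thbs1 and F13a1, 129S1/ImJ for Ppbp with replicate 3 lowest, and DBA/2J and 129S1/ImJ are low for Selp in GLOBINclear RNA.

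**Figure D4:**
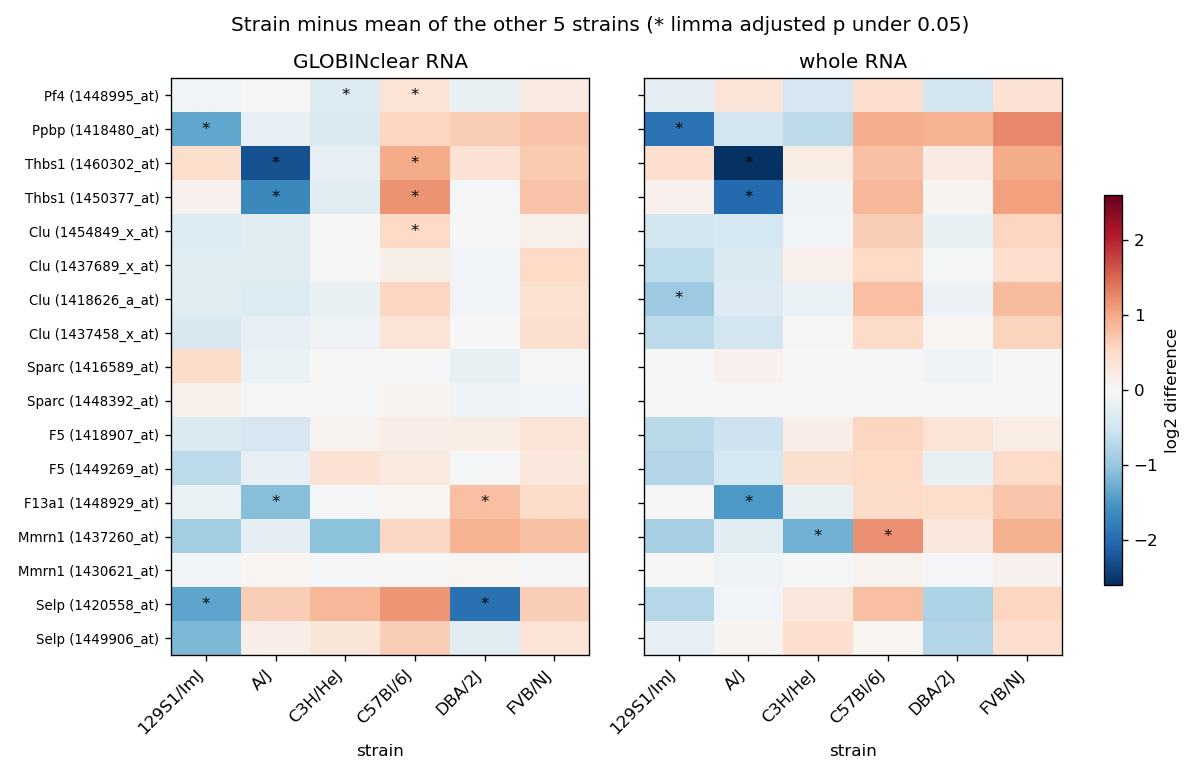
Log2 difference of each strain from the mean of the other 5 for the 17 tested probe sets, in GLOBINclear (left) and whole RNA (right), with a star where the limma adjusted p is under 0.05. Both Thbs1 sets are starred and lowest in A/J in each preparation, while the 2 Sparc sets and the dim Mmrn1 set are near 0 in most strains.

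The strains also differed in the level of platelet marker genes as a whole. The mean of 9 such genes, among them the integrin subunit Itga2b and the von Willebrand factor receptor subunits Gp1bb and Gp9, was lowest in A/J (9.53 to 9.90 in GLOBINclear and 7.87 to 8.35 in whole RNA) and 129S1/ImJ (9.60 to 9.83 and 7.99 to 8.22), and it ran up to 10.90 and 9.74 in C57Bl/6J. Over strains 7 of the 9 were called in GLOBINclear RNA and 8 in whole RNA. Low Thbs1 and F13a1 in A/J and low Ppbp in 129S1/ImJ thus stand beside low platelet markers. Taken relative to the marker mean of the same array, Thbs1 in A/J was -1.68 in GLOBINclear and -1.82 in whole RNA against the other 5 strains. On this scale no A/J mouse reached the others (-2.86 to -2.10, against -1.44 to -0.20, in GLOBINclear RNA). F13a1 in A/J was -0.52 and -0.73 on this scale. In GLOBINclear RNA it overlapped C57Bl/6J, which was as low (-0.52), so the low F13a1 was not particular to A/J there. Ppbp in 129S1/ImJ was -0.82 and -1.09, mostly from replicate 3 (0.36, against 1.96 and 1.99 in its strain mates, in GLOBINclear RNA). The marker mean was 9.83 in replicate 3 and 9.81 and 9.60 in its strain mates. The part of platelet number in any of these differences was not tested.

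**Figure D5:**
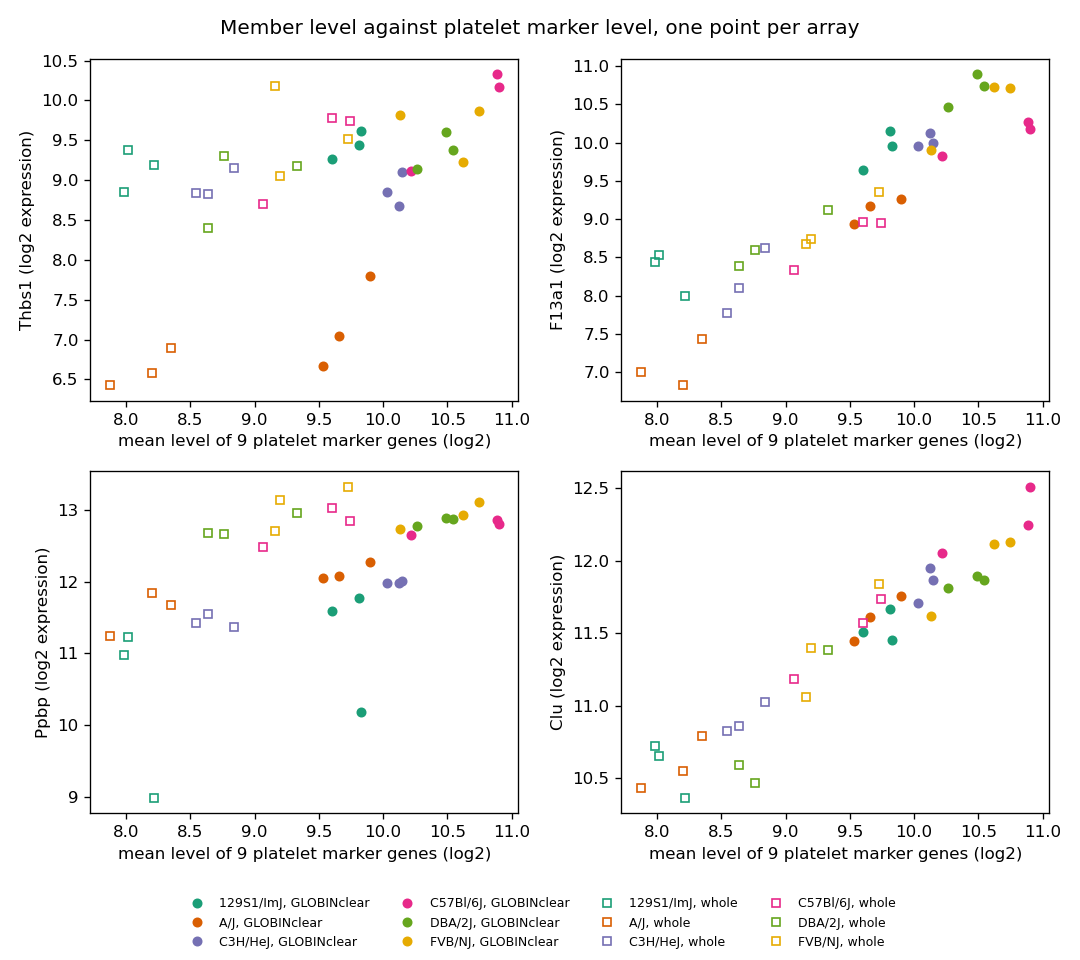
Log2 expression of Thbs1, F13a1, Ppbp and Clu against the mean log2 level of 9 platelet marker genes, 1 point per array, filled for GLOBINclear and open for whole RNA. The A/J points lie apart below the others for Thbs1, 129S1/ImJ replicate 3 lies below for Ppbp, and Clu rises with the markers within each preparation.

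The genes most like each member across the 18 mice, by the lower of the correlations in GLOBINclear and in whole RNA among 11352 genes, differed from member to member. These are descriptions over mice that share strain and library. Clu went with Gp9 (r = 0.93 and 0.96), Rac1 and Alox12, the platelet lipoxygenase. Mmrn1 went with Angpt1 (0.90 and 0.89), a growth factor also stored in platelets, and Ppbp with Nbdy (0.93 and 0.92), Cavin2 and Prkar2b. F13a1 went with Nlk (0.93 and 0.88), Thbs1 with H1f2 (0.85 and 0.84), Scamp1 and Flna, F5 with Pon2 (0.81 and 0.83) and Gp5, Pf4 with Gdi2 (0.82 and 0.81), and Selp with Crtap (0.83 and 0.75). For Sparc the lower correlation was at most 0.66. Between members the median correlation was 0.31 in GLOBINclear and 0.30 in whole RNA over 36 pairs, ranging from -0.48 to 0.84 and from -0.53 to 0.88.

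Other genes of the same systems gave a setting for these values. Of 24 tested platelet receptor and lineage genes 22 were higher in GLOBINclear RNA and 1 lower, against 39.4% and 47.6% of the array. The list averaged 8.61 to 9.48 by strain in GLOBINclear RNA. Of all sets, 93.3% at level 8 to 11 and 81.9% at 4 to 8 were called higher, so the count is near the share at such levels. Among the higher genes were Itgb3, the fibrinogen receptor subunit (2.83 ± 0.12), and Itga2b (1.81 ± 0.09). Rgs18, a regulator of G protein signalling, changed by -0.01 ± 0.10 without a call. 14 of the 24 were called over strains in GLOBINclear RNA, 12 in whole RNA and 10 in both, against 11.2%, 4.32% and 3.43% of the array. Shares of strain calls at the level of this list were not computed. F2rl2, the protease-activated receptor PAR3, averaged 2.84 in 129S1/ImJ and 2.95 in A/J in GLOBINclear RNA, against 5.82 to 7.15 in the other 4 strains (limma adjusted p = 1.55e-09). Treml1, a receptor of the granule membrane, averaged 7.23 in 129S1/ImJ and 7.87 in A/J, against 8.25 to 9.04.

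Of 26 tested genes for other granule cargo and granule formation 17 were higher and 5 lower in GLOBINclear RNA. Over strains 9 were called there, 7 in whole RNA and 6 in both. These counts are to be read against the same shares of the array, which for strain calls were not computed by level. Vwf, the adhesive protein stored with these members, changed by 3.06 ± 0.14 and Tgfb1 by 2.63 ± 0.10. Vwf averaged 9.62 in 129S1/ImJ and 9.54 in A/J in GLOBINclear RNA, against 9.87 to 10.90 in the others. Angpt1 averaged 4.57 in C3H/HeJ and 5.13 in 129S1/ImJ, against 7.10 to 8.47 (limma adjusted p = 2.46e-05), the same strains in which Mmrn1 was lowest. Of 17 tested genes for other coagulation and fibrinolysis proteins, most of them made in the liver, 6 were higher and 8 lower, and 4 were called over strains in GLOBINclear RNA and 2 in whole RNA. The counts higher and lower are near the shares of the array. F10 (1.47 ± 0.11) and the protein S gene Pros1 (1.39 ± 0.09) were among the 6.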

How the data were processed

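The title of each sample gave its preparation, strain and replicate number. The deposited values are log2 expression summaries per probe set. The tools named per the submitters' processing notes are MAS5, GCRMA and affy, with no version or role. The log2 scale was read from the values. Scan and hybridization days were not used here, and the number of arrays limits the precision. Whether 129S1/ImJ, the strain label, is the 129S1/SvImJ of the protocol text was not settled.

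Control sets (64) were set aside, and the other 45037 were tested if their mean over 36 arrays exceeded the median of those means (2.89). Fits used limma 3.58.1 in R 4.3.3 (lmFit, eBayes with trend) on 22518 sets, with Benjamini-Hochberg adjustment over all of them. The preparation effect had the mouse as a block, and the strain tests used 1 value per mouse: F tests within a preparation, and strain against the other 5 on the mean of both arrays. The interaction was an F test on the differences of each mouse. The series describes the samples as paired; same-numbered arrays correlated in their deviations at -0.08 to 0.66 (median 0.38), and 17 of 18 matched best with their own number, the exception being DBA/2J replicate 3. A gene was represented by the set that averaged highest across its 36 arrays, a choice that decides which change is printed first for F5 and Clu.

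The members, gene lists and marker lists were chosen with earlier results of these data known. Named genes were the members, up to 4 per list by the preparation statistic and up to 4 by the strain F test, and the 3 most like each member. The scripts were tested on simulated data. Alternatives were scaling, filter, prior, probe set summary, preparation, block and leaving out mice. All value columns were used (0 left out). Figures were drawn with matplotlib 3.10.9 in python 3.11.15.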

Additional observations from a re-analysis of the deposited data

Results flagged for a closer look

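The effect of globin removal on Ppbp differed among strains by limma's F test of the interaction (adjusted p = 0.0464; 2.44% of the array called). The mean of GLOBINclear minus whole RNA was 0.78 in 129S1/ImJ, 0.55 in A/J and 0.55 in C3H/HeJ, against -0.02 in C57Bl/6J, 0.08 in DBA/2J and -0.12 in FVB/NJ. The 3 strains with the larger change are those with the lower Ppbp level. The call held in 8 of 26 alternatives, with an adjusted p of up to 0.101 when a mouse was left out, and it was 0.0547 without 129S1/ImJ replicate 3.

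The effect on Selp (1420558_at) also differed among strains (limma adjusted p = 0.0204). It was 0.24 in DBA/2J and 0.65 in 129S1/ImJ, the strains with the lowest Selp levels, many of them under 4 and close to background in both preparations, and 1.24 to 1.75 in the other 4 strains. The call held in 22 of 26 alternatives and was lost without DBA/2J replicate 2 or replicate 3 (limma adjusted p = 0.0673 and 0.0548) and with the gene's sets averaged. DBA/2J replicate 3 is the mouse whose 2 arrays did not match best with each other (r = -0.08 between their deviations). Its difference between preparations is therefore less sure. The cause of either difference was not tested.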

How the results depend on the processing

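Forcing all arrays to 1 distribution left 9 sets (4 genes) higher and 5 sets (3 genes) lower in GLOBINclear RNA and 0 interaction calls; it turned Pf4 (-0.0146), Ppbp (-0.31), F5 (-0.19) and Thbs1 (-0.91). Centring on the hybridization spike-ins moved the median change of all sets to 2.03, which made 99.9% of called sets higher, against 45.3% as deposited, and left 0 members lower, with 1 set (1 gene) higher and 10 sets lower in a strain, and 1 interaction call. The other scalings moved that median by under 0.1. With no filter 2 sets were lower, strains gave 1 set (1 gene) higher and 3 genes lower, and 1 interaction call remained; averaging a gene's sets also gave 1. Whole RNA alone gave 1 set (1 gene) higher in a strain. Without C57Bl/6J replicate 1 and 129S1/ImJ replicate 3, an alternative chosen after seeing the data, strains gave 12 sets (9 gene calls) higher. The array's shares of strain calls were not computed for these alternatives.

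Leaving out single mice gave 14 to 16 sets higher after globin removal (9 genes throughout), and 1 set lower. Strain F tests gave 7 to 11 sets (6 to 7 genes) in GLOBINclear and 4 to 7 sets (3 to 5 genes) in whole RNA. Strains gave 0 to 10 sets (0 to 7 genes) higher and 5 to 10 sets (4 to 6 genes) lower, the counts of 0 coming without C57Bl/6J replicate 2 and those of 10 without FVB/NJ replicate 2. The interaction gave 0 to 2, with 0 without DBA/2J replicate 2 or replicate 3. The Ppbp difference between preparations lost its call without the mouse as a block (no pairing: 0.30, limma adjusted p = 0.0589), and no other representative set did.

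Clu's strain call in GLOBINclear RNA held in 19 of 26 alternatives and was lost without A/J replicate 3 or C57Bl/6J replicate 2 or 3. It was also lost under quantile normalization, over all arrays or within a preparation, with spike-in centring and with the gene's sets averaged. In whole RNA a call appeared without DBA/2J replicate 2 or FVB/NJ replicate 2, and with the sets averaged. The cause of these changes was not tested. Levels under about 4 are close to background and limit what can be said of Sparc, of Selp in whole RNA, and of Selp in DBA/2J and 129S1/ImJ in GLOBINclear RNA.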
